A study of Homo sapiens with 27 samples.

Results

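The genes described here are 10 of the matrix metalloprotease genes that lie outside the cluster on chromosome 11: MMP2, MMP9, MMP11, MMP14, MMP15, MMP16, MMP17, MMP19, MMP24 and MMP25. They were taken by symbol from a table of 23230 genes, as a set named with earlier results of these data known. RNA was sequenced as 27 libraries of 3 human tumour cell lines. SK-N-SH came from a neuroblastoma, while BON-1 and QGP-1 came from pancreatic neuroendocrine tumours. Each line was transfected with a pCMV6-AC plasmid carrying MAML3 cDNA without its first exon (dEx1), the same plasmid carrying full-length MAML3 cDNA (FL), or the plasmid with no MAML3 sequence (vector). Both MAML3 constructs bear a V5 tag at the carboxyl end. MAML3 is a Mastermind-like transcriptional coactivator known from Notch signalling. RNA was collected on day 3 after lipid transfection, with 3 biological replicates in each of the 9 groups. Each line was grown in its own medium, so line and medium cannot be told apart, and the share of cells that took up plasmid was not given.

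Matrix metalloproteases are zinc enzymes that cut collagens, other matrix proteins and proteins at the cell surface, and they are made as inactive precursors. Secreted members diffuse into the matrix, while membrane-type members are held at the surface by a transmembrane segment or by a lipid anchor. Membrane-type enzymes and MMP11 carry a site that furin-like convertases cut, and TIMP proteins inhibit many members of the family. RNA level does not report enzyme activity, and no protein was measured here.

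The table held estimated counts, with totals per library between 73026244 and 120254457 in the deposited unit, whose worth in sequenced fragments is not stated. MAML3 ran from 2231 to 15840 CPM (counts scaled to a common library size) in the 18 libraries that received a construct, against 16.9 to 93.7 CPM in the 9 vector libraries. As checks of the line labels, 5 epithelial markers summed to 108 to 284 CPM per library in SK-N-SH, against 7149 to 16842 CPM in BON-1 and 4046 to 5586 CPM in QGP-1. Of sympathetic lineage genes, HAND2 averaged 53.2 to 123 CPM over the SK-N-SH groups and was at 0 in BON-1 and at 4.7 to 5.87 CPM in QGP-1, and DBH averaged 21.8 to 25.7 CPM in SK-N-SH and at most 0.0640 CPM elsewhere. Not all such genes separated the lines. ISL1 averaged 15.4 to 25.5 CPM in SK-N-SH and 20.8 to 21.7 CPM in QGP-1, against at most 0.374 CPM in BON-1. TH, the enzyme that starts catecholamine synthesis, was at or near 0 in SK-N-SH and averaged up to 0.935 CPM in BON-1 and up to 0.309 CPM in QGP-1. In SK-N-SH, replicate 3 stood apart on the second principal component, which held 19.2% of the variance. Replicate 3 of SK-N-SH vector also lay with the dEx1 libraries on the first (40.7% of the variance), at 40.0, where replicates 1 and 2 were at -28.3 and -28.5. In BON-1, replicate 1 of vector stood apart on the first component (30.2% of the variance), at 107.

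In vector-transfected cells each line had its own set of these enzymes. To compare genes within a line, each level was set per kilobase of the gene's canonical transcript. This scale is approximate, since the transcripts expressed and the annotation used for counting were not known. On that scale SK-N-SH vector cells had most RNA of MMP2, at 364 ± 11.1 CPM per kilobase, and then of MMP14, at 147 ± 19.5 CPM per kilobase (SD, n = 3). MMP11 at 44.3 ± 53.4, MMP9 at 15.7 ± 9.21 and MMP17 at 8.43 ± 0.757 CPM per kilobase followed, and the ranges of neighbours in this order overlapped from MMP11 to MMP17. Below them, without overlap between neighbours, came MMP24 at 4.84, MMP15 at 2.20, MMP19 at 1.82, MMP16 at 0.318 and MMP25 at 0.0923 CPM per kilobase. BON-1 vector cells had MMP14 at 37.3 ± 20.3 and MMP15 at 36.0 ± 11 CPM per kilobase, which overlapped, and then MMP2 at 8.73 ± 2.50 CPM per kilobase. QGP-1 vector cells were led by MMP2 at 36.8 ± 11.8, MMP15 at 12.2 ± 3.61 and MMP24 at 8.80 ± 0.101 CPM per kilobase, and the other 7 genes were each at or below 1.68 CPM per kilobase.

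**Figure D1:**
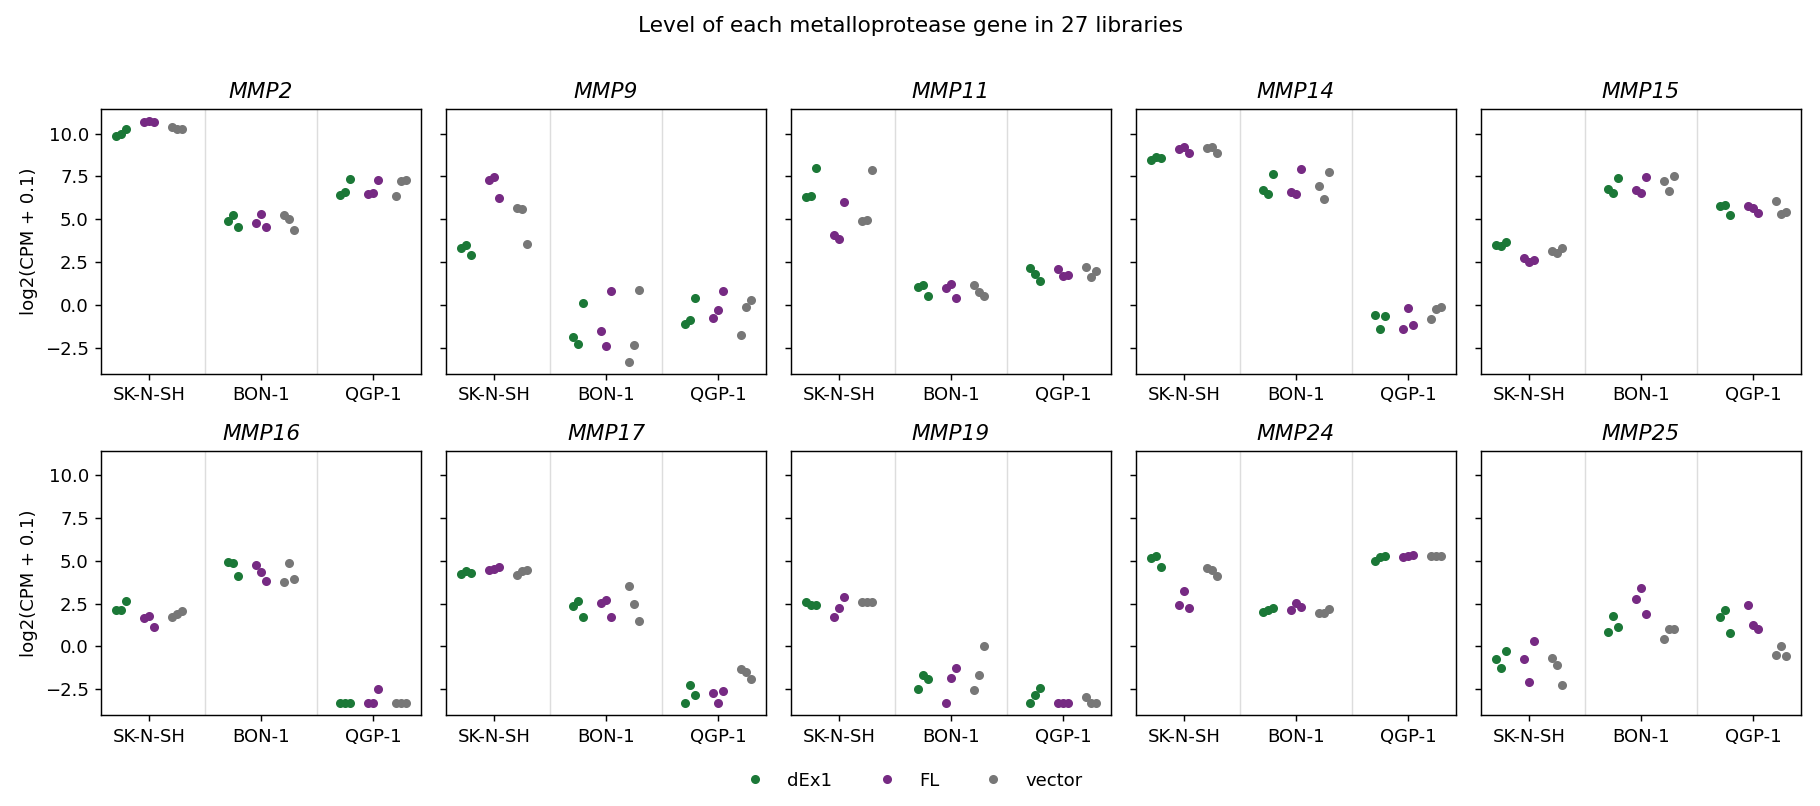
Level of each of the 10 metalloproteases in each of 27 libraries (1 point each), as log2 of CPM plus 0.1, by cell line and, within a line, by construct (dEx1, FL, vector from left to right). SK-N-SH libraries sit highest for MMP2, MMP9, MMP11, MMP14, MMP17 and MMP19, BON-1 libraries for MMP15 and MMP16, and MMP14, MMP16, MMP17 and MMP19 lie at or near 0 in QGP-1.

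The secreted gelatinases MMP2 and MMP9 cut denatured collagen and the type IV collagen of basement membranes. MMP2 (hg19 chromosome 16, 55423612 to 55540603, plus strand, 13 exons) averaged 1278 ± 39.1 CPM in SK-N-SH vector cells, against 30.7 ± 8.78 CPM in BON-1 and 129 ± 41.5 CPM in QGP-1 vector cells (SD, n = 3). The log2 difference was 5.38 (SE 0.35, adjusted p = 2.23e-11) from BON-1 and 3.31 (SE 0.31, adjusted p = 8.62e-09) from QGP-1. BON-1 lay below QGP-1 by a log2 difference of -2.07 (SE 0.30, adjusted p = 5.43e-06). The annotation places MMP2-AS1 over MMP2 on the opposite strand, so reads of the pair may not have been told apart. MMP9 (chromosome 20, 44637547 to 44645200, plus strand, 13 exons) averaged 36.7 ± 21.5 CPM in SK-N-SH vector cells and did not exceed 1.74 CPM in any BON-1 library or 1.63 CPM in any QGP-1 library. Its log2 difference was 5.87 (SE 1.23, adjusted p = 0.000296) from BON-1, where it was 9.42 without replicate 3 of BON-1 vector, and 5.70 (SE 1.21, adjusted p = 0.000349) from QGP-1. Leukocytes are a known source of MMP9, and the summed level of 5 leukocyte markers was 1.02 to 4.37 CPM in SK-N-SH. CSF3R and MPO were at 0 in every group of that line. On average CD14 was at 0.767 to 1.69 CPM, PTPRC at 0.359 to 0.836 CPM and ITGAM at 0.0102 to 1.09 CPM.

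MMP11, known as stromelysin-3, and MMP19 are also secreted. MMP11 (chromosome 22, 24110413 to 24126503, plus strand, 8 exons) averaged 100.2 ± 121 CPM in SK-N-SH vector cells, against 1.70 ± 0.400 CPM in BON-1 and 3.81 ± 0.802 CPM in QGP-1 vector cells. The log2 difference was 5.88 (SE 0.80, adjusted p = 1.59e-06) from BON-1 and 4.72 (SE 0.75, adjusted p = 1.26e-05) from QGP-1. Without replicate 3 of SK-N-SH vector these were 4.18 and 2.96, and both calls held. Between the pancreatic lines MMP11 did not pass, at -1.17 for BON-1 against QGP-1 (SE 0.67, adjusted p = 0.156). MMP19 (chromosome 12, 56229217 to 56236750, minus strand, 9 exons) averaged 5.89 ± 0.0589 CPM in SK-N-SH vector cells and 0.409 ± 0.458 CPM in BON-1 vector cells, a log2 difference of 3.83 (SE 0.97, adjusted p = 0.00206) that was 5.30 without replicate 3 of BON-1 vector. In QGP-1, 6 of 9 libraries had no MMP19 and the highest had 0.0866 CPM.

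Membrane-type members with a transmembrane segment are MMP14, MMP15, MMP16 and MMP24. MMP14 (chromosome 14, 23305769 to 23318250, plus strand, 10 exons) activates the precursor of MMP2 at the cell surface together with TIMP2. It averaged 544 ± 72.2 CPM in SK-N-SH vector cells, 138 ± 75.1 CPM in BON-1 and 0.674 ± 0.188 CPM in QGP-1. The log2 difference was 1.98 (SE 0.43, adjusted p = 0.000396) for SK-N-SH against BON-1, 9.65 (SE 0.60, adjusted p = 1.32e-11) for SK-N-SH against QGP-1 and 7.68 (SE 0.56, adjusted p = 3.06e-10) for BON-1 against QGP-1. QGP-1 cells had MMP2 RNA but little MMP14 RNA, at most 0.814 CPM in any of 9 libraries. TIMP2 averaged 1114 ± 108 CPM in SK-N-SH, 89.0 ± 54.3 CPM in BON-1 and 39.6 ± 2.87 CPM in QGP-1 vector cells.

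MMP15 (chromosome 16, 58059658 to 58080805, plus strand, 10 exons), a close relative of MMP14, was lowest in SK-N-SH, where MMP14 was highest. It averaged 8.93 ± 1.05 CPM in SK-N-SH, 146 ± 44.8 CPM in BON-1 and 49.7 ± 14.6 CPM in QGP-1 vector cells, a log2 difference of -4.03 (SE 0.30, adjusted p = 2.07e-10) for SK-N-SH against BON-1 and -2.48 (SE 0.28, adjusted p = 1.25e-07) against QGP-1. BON-1 exceeded QGP-1 by 1.56 (SE 0.27, adjusted p = 5.50e-05). MMP16 (chromosome 8, 89044239 to 89340254, minus strand, 10 exons) averaged 3.68 ± 0.460 CPM in SK-N-SH and 19.4 ± 8.90 CPM in BON-1 vector cells, a log2 difference of -2.40 (SE 0.50, adjusted p = 0.000467). All QGP-1 vector libraries were at 0 for MMP16. Set against a floor of 15 deposited units per library, SK-N-SH was at least 22.9-fold higher and BON-1 at least 121-fold higher than QGP-1.

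MMP24 (chromosome 20, 33814493 to 33864801, plus strand, 9 exons) is known from neurons, where in mice it cuts N-cadherin. In vector cells it averaged 21.2 ± 3.21 CPM in SK-N-SH, 3.98 ± 0.354 CPM in BON-1 and 38.5 ± 0.443 CPM in QGP-1. All 3 differences passed the test: 2.41 (SE 0.21, adjusted p = 3.35e-09) for SK-N-SH against BON-1, -0.86 (SE 0.20, adjusted p = 0.000959) for SK-N-SH against QGP-1 and -3.27 (SE 0.22, adjusted p = 9.94e-11) for BON-1 against QGP-1. On the opposite strand the annotation places MMP24OS across the whole gene, and how the counting treated strand was not stated.

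The lipid-anchored members are MMP17 and MMP25. MMP17 (chromosome 12, 132312938 to 132336328, plus strand, 10 exons) averaged 20.3 ± 1.83 CPM in SK-N-SH, 6.51 ± 4.45 CPM in BON-1 and 0.243 ± 0.0657 CPM in QGP-1 vector cells. SK-N-SH exceeded BON-1 by a log2 difference of 1.64 (SE 0.52, adjusted p = 0.00945), or 2.31 without replicate 1 of BON-1 vector, and QGP-1 by 6.38 (SE 0.66, adjusted p = 2.79e-08). BON-1 exceeded QGP-1 by 4.74 (SE 0.61, adjusted p = 1.33e-06), or 4.03 without that library. MMP25 (chromosome 16, 3096063 to 3110727, plus strand, 10 exons), known from leukocytes, averaged 0.339 ± 0.214 CPM in SK-N-SH, 1.70 ± 0.388 CPM in BON-1 and 0.712 ± 0.189 CPM in QGP-1 vector cells. SK-N-SH lay below BON-1 by a log2 difference of -2.32 (SE 0.65, adjusted p = 0.00421), and BON-1 differed from QGP-1 by 1.26 (SE 0.63, adjusted p = 0.101).

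Counting over the family, all 10 genes differed between SK-N-SH and BON-1 vector cells, where 60.6% of all 16883 genes tested did, with 7 higher (29.7% of all genes) and 3 lower (30.9%) in SK-N-SH. Between SK-N-SH and QGP-1, 9 of 10 differed against 60.6% of all genes, with 7 higher (30.6% of all genes) and 2 lower (30.0%) in SK-N-SH. Between BON-1 and QGP-1, 7 of 10 differed against 51.4% of all genes, with 5 higher (27.7% of all genes) and 2 lower (23.7%) in BON-1.

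Of the comparisons between constructs, dEx1 against FL in SK-N-SH gave the most calls in this family. There 6 of the 10 genes passed the test, where 22.0% of all 14674 genes tested did. MMP24, MMP15 and MMP16, all transmembrane enzymes, were higher in dEx1 cells than in FL cells, and the gelatinases MMP2 and MMP9 and the transmembrane MMP14 were lower. Of all genes, 10.5% were higher and 11.5% lower in dEx1 cells. The median log2 difference of the 10 genes was -0.04, beside 0.0003 over all genes tested. Some cell type markers also differed between these groups, in both directions. Neuroendocrine markers (5 genes) summed to 791 to 1521 CPM in dEx1 libraries, 399 to 524 CPM in FL libraries and 561 to 1451 CPM in vector libraries. Most of this sum was SCG2, at 1029.5 CPM on average in dEx1 and 424 CPM in FL cells. CHGA and SYP were higher in dEx1 than in FL cells at low levels, CHGB was lower, and INSM1 was at 0. Mesenchymal markers (5 genes) summed to 13939 to 17649 CPM in dEx1, 9875 to 13627 CPM in FL and 10632 to 17069.5 CPM in vector libraries. On average COL1A1 (6283 against 2242 CPM), VIM (6520 against 4580 CPM) and TWIST1 (113 against 91.6 CPM) were higher in dEx1 than in FL cells. PRRX1 (570 against 706 CPM) and FN1 (2446 against 3530 CPM) were lower. The part of these markers in the metalloprotease result was not tested. A bulk library cannot tell fewer expressing cells from less RNA per cell.

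**Figure D2:**
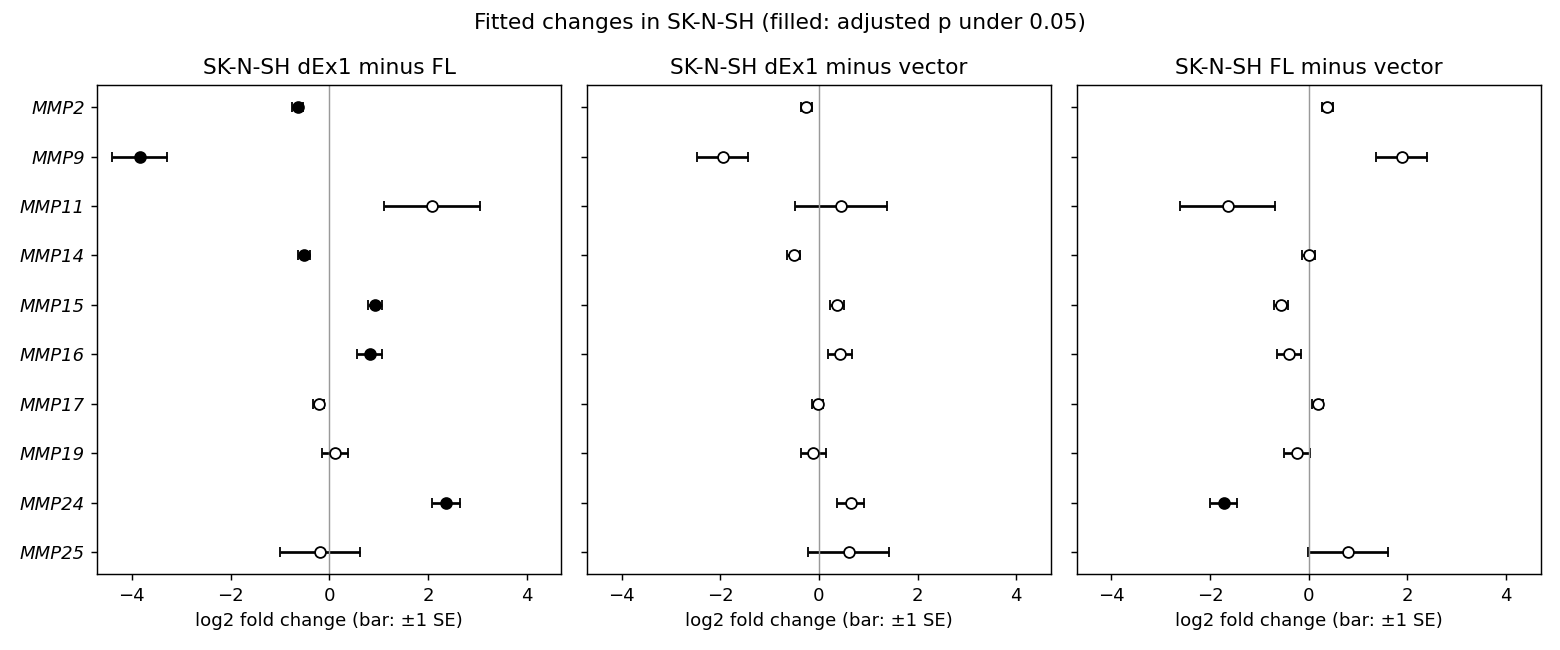
Fitted log2 difference of each metalloprotease in SK-N-SH for dEx1 minus FL, dEx1 minus vector and FL minus vector, with bars of 1 SE (3 libraries a group) and filled points where adjusted p was under 0.05. MMP24, MMP15 and MMP16 lie above 0 and MMP2, MMP9 and MMP14 below 0 for dEx1 minus FL, between -3.84 for MMP9 and 2.37 for MMP24.

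The 250 bases before the start of 3 of these transmembrane genes are shown because the genes went different ways between the constructs: MMP24 and MMP15 were higher and MMP14 lower in dEx1 than in FL cells. They are on the plus strand of GRCh38.p14 in RefSeq, 5′ to 3′, at chr20:35226440-35226689 for MMP24, chr16:58025504-58025753 for MMP15 and chr14:22836335-22836584 for MMP14. Capitals mark TGGGAA, the core letters bound by RBPJ, the DNA-binding partner of Mastermind proteins in Notch signalling.
MMP24: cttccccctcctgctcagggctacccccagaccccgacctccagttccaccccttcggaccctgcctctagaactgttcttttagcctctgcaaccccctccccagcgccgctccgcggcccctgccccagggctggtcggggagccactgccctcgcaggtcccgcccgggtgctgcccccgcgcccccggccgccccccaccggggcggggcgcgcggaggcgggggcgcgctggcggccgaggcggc
MMP15: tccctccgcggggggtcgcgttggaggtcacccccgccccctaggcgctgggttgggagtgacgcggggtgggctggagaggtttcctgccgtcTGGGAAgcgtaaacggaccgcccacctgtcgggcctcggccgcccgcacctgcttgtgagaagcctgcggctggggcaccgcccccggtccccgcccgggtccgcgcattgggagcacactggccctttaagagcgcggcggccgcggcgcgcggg
MMP14: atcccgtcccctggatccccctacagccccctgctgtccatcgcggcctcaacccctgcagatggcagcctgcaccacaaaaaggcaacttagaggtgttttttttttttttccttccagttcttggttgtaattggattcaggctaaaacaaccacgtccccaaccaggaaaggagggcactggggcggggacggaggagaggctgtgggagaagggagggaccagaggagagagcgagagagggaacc
Searching both strands, TGGGAA occurred 1 time among the 3, on the plus strand of MMP15 at position -156 from the start. It occurred in 20.8% of all 35116 promoters of the same length. TGANTCA, the letters of an AP-1 site, was in none of the 3 and in 6.57% of all promoters. A match is a run of letters only, and binding was not measured.

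MMP24 had the largest of the 3 rises in dEx1 over FL cells. In SK-N-SH it had 35.4, 38.5 and 25.1 CPM in dEx1 libraries, 5.19, 9.35 and 4.71 CPM in FL libraries, and 23.7, 22.3 and 17.5 CPM in vector libraries, in the order of replicates 1 to 3. The 3 groups did not overlap: every dEx1 library was above every vector library, and every FL library below. MMP24 was higher in dEx1 than in FL cells by a log2 fold change of 2.37 (SE 0.28, adjusted p = 0.00136), and this call held under each alternative run. Against vector, FL cells were lower by -1.72 (SE 0.28, adjusted p = 0.0261), the 1 call among 10 genes in a comparison where 1.74% of all genes passed and 0.804% were lower. Leaving out replicate 1 of FL, of dEx1 or of vector, or replicate 2 of vector, raised that adjusted p to between 0.0566 and 0.12. dEx1 against vector was 0.65 (SE 0.27, adjusted p = 0.202), which did not pass.

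In the pancreatic lines the MMP24 libraries of each construct overlapped those of vector. Each BON-1 construct library was above the same-numbered vector library, though MMP24 did not pass there with the replicate block either. BON-1 had 3.93 to 4.62 CPM in dEx1, 4.32 to 5.64 CPM in FL and 3.73 to 4.38 CPM in vector libraries, and QGP-1 had 31.7 to 39.4 CPM in dEx1, 37.5 to 41.1 CPM in FL and 38.1 to 39.0 CPM in vector libraries. MAML3 averaged 12018 CPM in SK-N-SH, 4042 CPM in BON-1 and 5475 CPM in QGP-1 FL libraries, and its part in the next comparison was not tested. The FL change of MMP24 was lower in SK-N-SH than the mean FL change of BON-1 and QGP-1 by a log2 difference of -1.89 (SE 0.25, adjusted p = 0.000956). MMP24 was the 1 gene of 10 to pass in that test, where 0.373% of all genes did and 0.136% were lower, and it passed in every alternative run, between -2.26 and -1.71. The same test for dEx1 gave 0.64 (adjusted p = 0.286), which did not pass. None of the 10 passed in it by edgeR without a replicate block, where 0.883% of all genes did. At an unadjusted p under 0.05 there was 1 of them, beside 12.1% of all genes. DESeq2 called none, beside 3.82% of all genes, though it gave MMP11 no adjusted p in the FL test of the same fit.

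**Figure D3:**
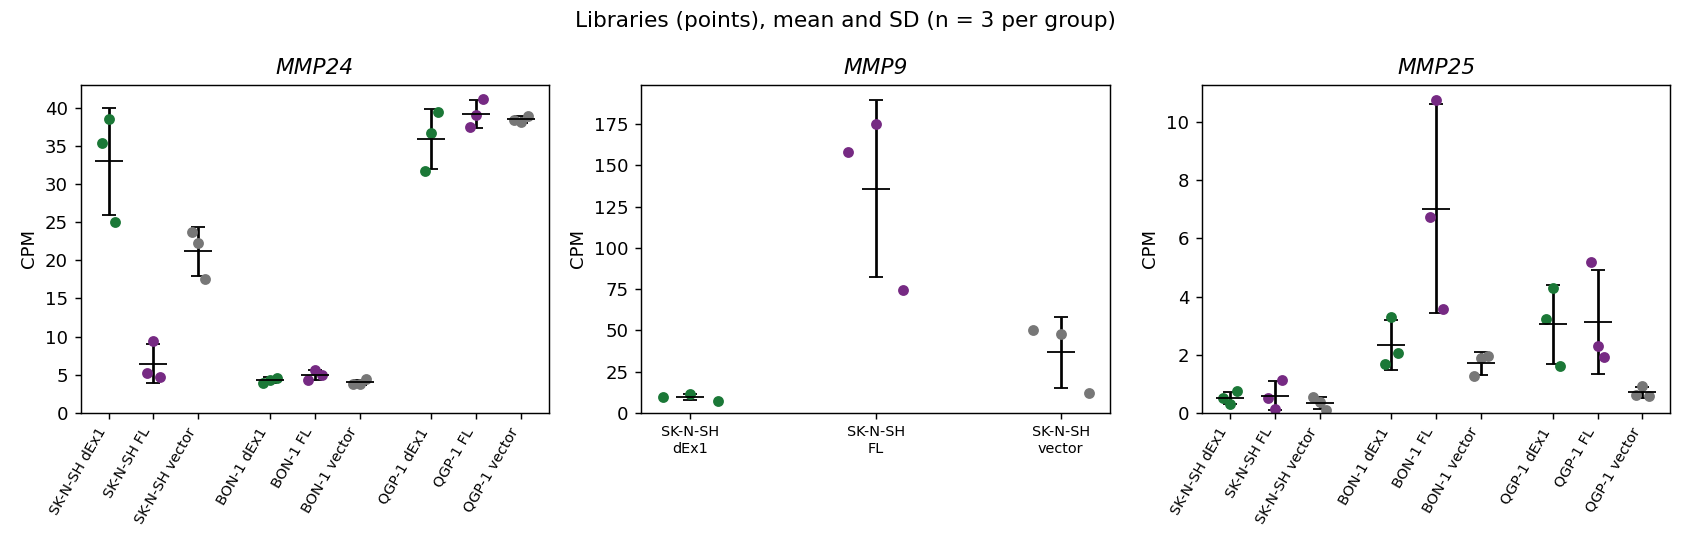
MMP24 and MMP25 in the 3 lines and MMP9 in SK-N-SH, in CPM, with constructs in the order dEx1, FL, vector; points are libraries, the wide line is the mean and the bar its SD (n = 3). In SK-N-SH the FL libraries are lowest for MMP24, at 4.71 to 9.35 CPM, and highest for MMP9, at 74.7 to 175 CPM, and in BON-1 the FL libraries are highest for MMP25, at 3.57 to 10.7 CPM.

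MMP9 had the largest difference between the constructs among the 10 genes. SK-N-SH libraries had 9.73, 11.1 and 7.44 CPM with dEx1, 158, 175 and 74.7 CPM with FL, and 50.1, 48.0 and 11.9 CPM with vector, in the order of replicates 1 to 3. Each dEx1 library was below each vector library and each FL library above them, and replicate 3 was the lowest of its group each time. dEx1 lay below FL by a log2 fold change of -3.84 (SE 0.56, adjusted p = 0.00269), a call that held under each alternative run. Neither comparison with vector passed: FL gave 1.89 (SE 0.51, adjusted p = 0.114) and dEx1 gave -1.95 (SE 0.52, adjusted p = 0.0711). The dEx1 comparison passed without replicate 3 of vector, at -2.38 (adjusted p = 0.00501). Both passed with DESeq2, at adjusted p = 0.00299 for FL and 0.00106 for dEx1. Both also passed with a term for replicate 3, added after the data were seen, at 2.00 (adjusted p = 0.00725) for FL and -1.73 (adjusted p = 0.00814) for dEx1. The annotation places SLC12A5-AS1 over part of MMP9 on the opposite strand. Leukocyte markers summed to 1.02 to 3.02 CPM in dEx1, 1.05 to 1.95 CPM in FL and 1.44 to 4.37 CPM in vector libraries. In the same order PTPRC averaged 0.359, 0.836 and 0.600 CPM, ITGAM 0.0987, 0.0102 and 1.09 CPM, and CD14 1.57, 0.767 and 1.69 CPM. The part of these markers in the MMP9 result was not tested.

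MMP2 and MMP14, which act together at the cell surface, were both lower in dEx1 than in FL cells, though they stood differently to vector. MMP2 had 926, 1016 and 1253 CPM in dEx1 libraries, 1621, 1698 and 1673 CPM in FL libraries and 1323, 1258 and 1253 CPM in vector libraries. The FL libraries were above all others, and the highest dEx1 library was level with the lowest vector library. Between the constructs the log2 fold change of MMP2 was -0.64 (SE 0.11, adjusted p = 0.00591). MMP14 had 351, 404 and 382 CPM in dEx1, 559, 601 and 474 CPM in FL and 578, 592 and 461 CPM in vector libraries. Here FL and vector overlapped throughout and the 3 dEx1 libraries were the lowest. MMP14 was lower in dEx1 than in FL cells by -0.51 (SE 0.13, adjusted p = 0.0203). That call was lost without replicate 1 or 2 of FL or replicate 1 or 3 of dEx1, with adjusted p between 0.0559 and 0.075.

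MMP15 and MMP16, which were low in SK-N-SH, were higher in dEx1 than in FL cells. MMP15 had 11, 10.7 and 12.8 CPM with dEx1, 6.60, 5.58 and 6.04 CPM with FL and 8.75, 7.99 and 10.1 CPM with vector, with no overlap between any of the groups. Its log2 fold change for dEx1 against FL was 0.93 (SE 0.14, adjusted p = 0.00332), and the call held under each alternative run. MMP16 had 4.25, 4.30 and 6.18 CPM with dEx1, 3.10, 3.26 and 2.06 CPM with FL and 3.24, 3.64 and 4.15 CPM with vector. Its FL range touched that of vector, while dEx1 was above both. MMP16 gave 0.82 (SE 0.25, adjusted p = 0.0440), the weakest of the 6 calls. It passed in 1 of 9 fits that left out a library, the one without replicate 3 of vector, and otherwise had adjusted p between 0.0608 and 0.156. With no filter on low counts its adjusted p was 0.0566.

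MMP11 had a different level in replicate 3 of every SK-N-SH group. It had 77.7, 80.4 and 251 CPM in dEx1, 16.6, 14.6 and 65.6 CPM in FL and 30.3, 30.7 and 239.6 CPM in vector libraries. Replicate 3 was 3.18 times the mean of the other 2 libraries with dEx1, 4.21 times with FL and 7.86 times with vector. The dEx1 libraries were all above the FL libraries, with a log2 fold change of 2.08 (SE 0.97) that did not pass (adjusted p = 0.162). It was 1.28 without replicate 3 of dEx1 and 3.13 without replicate 3 of FL. With the added term for replicate 3 it was 2.24 and passed (adjusted p = 0.000516). FL against vector gave -1.64 (SE 0.96, adjusted p = 0.460), which became 0.09 without replicate 3 of vector and -1.31 (adjusted p = 0.0192) with the added term. In BON-1 MMP11 stayed between 1.20 and 2.25 CPM and in QGP-1 between 2.58 and 4.61 CPM.

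**Figure D4:**
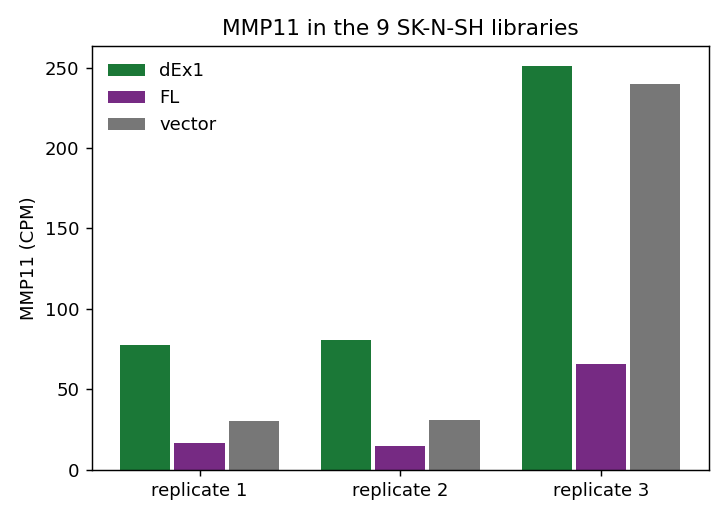
MMP11 in CPM, 1 bar for each SK-N-SH library, by replicate number and by construct (dEx1, FL, vector). Replicate 3 lies above replicates 1 and 2 in every group, at 251 CPM with dEx1, 65.6 CPM with FL and 239.6 CPM with vector.

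The remaining members did not pass any comparison of constructs in SK-N-SH. MMP17 had 18.8 to 21.3 CPM with dEx1, 21.9 to 24.9 CPM with FL and 18.3 to 21.8 CPM with vector. MMP19 had 5.21 to 5.83 CPM with dEx1, 3.25 to 7.15 CPM with FL and 5.85 to 5.96 CPM with vector, and MMP25 was at most 1.13 CPM in any library. For dEx1 against vector none of the 10 genes passed by edgeR, where 4.47% of all genes did. At an unadjusted p under 0.05 there were 4, beside 22.7% of all genes. DESeq2 called 2, MMP9 and MMP14, both lower in dEx1 cells, beside 13.6% of all genes. For FL against vector, 4 members had an unadjusted p under 0.05, beside 15.7% of all genes. DESeq2 called the same number, MMP2 and MMP9 higher and MMP15 and MMP24 lower in FL cells, beside 8.12% of all genes. It gave no adjusted p for MMP11 in that comparison.

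Among members that averaged at least 1 CPM in a group, MMP25 had the largest change in the pancreatic lines. BON-1 libraries had 1.66, 3.30 and 2.05 CPM with dEx1, 6.72, 10.7 and 3.57 CPM with FL and 1.25, 1.89 and 1.96 CPM with vector. All 3 FL libraries were above the other 6, while dEx1 and vector overlapped. FL against vector gave a log2 fold change of 2.04 (SE 0.44) and dEx1 against FL gave -1.58 (SE 0.43), with adjusted p = 0.928 and 1.00 by edgeR. In QGP-1, MMP25 had 3.22, 4.30 and 1.61 CPM with dEx1, 5.20, 2.29 and 1.91 CPM with FL and 0.617, 0.930 and 0.590 CPM with vector. Here both constructs lay above vector in every library and overlapped each other. FL against vector was 2.14 (SE 0.50, adjusted p = 0.553) and dEx1 against vector was 2.11 (SE 0.50, adjusted p = 0.869). DESeq2 called all 3 comparisons with higher MMP25, with adjusted p = 0.00436 for FL in BON-1, 0.00865 for FL in QGP-1 and 0.0147 for dEx1 in QGP-1.

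The antisense gene MMP25-AS1 overlaps MMP25, and no comparison of constructs passed for it in either line. In BON-1 it averaged 4.46 ± 0.539 CPM with dEx1, 5.26 ± 0.741 CPM with FL and 4.40 ± 0.669 CPM with vector (SD, n = 3). In QGP-1 it averaged 3.28 ± 0.541 CPM with dEx1, 3.01 ± 0.455 CPM with FL and 3.59 ± 0.0601 CPM with vector. Leukocyte markers summed to 1.41 to 3.20 CPM in dEx1, 1.46 to 2.59 CPM in FL and 0.266 to 2.89 CPM in vector libraries of BON-1. In QGP-1 they summed to 1.86 to 2.54 CPM in dEx1, 1.64 to 3.15 CPM in FL and 2.65 to 3.09 CPM in vector libraries. CSF3R, a defining marker of neutrophils, was at 0 in every group of both lines, while CD14 averaged 1.06 to 1.71 CPM in BON-1 and 2.13 to 2.90 CPM in QGP-1, and MPO averaged 0.0535 CPM in QGP-1 FL and was otherwise at 0. PTPRC averaged 0.190 CPM with dEx1, 0.203 CPM with FL and 0.0904 CPM with vector in BON-1. ITGAM averaged 0.191, 0.261 and 0.372 CPM there in the same order, and in QGP-1 neither gene averaged above 0.0168 CPM. The part of leukocytes in the MMP25 result was not tested.

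By edgeR none of the members passed in the pancreatic lines, where few genes passed at all. In BON-1 the share of all 14903 genes that passed was 0.0134% for dEx1 against vector, 0.00671% for FL against vector and 0% for dEx1 against FL. In these 3 comparisons, 0, 1 and 1 of the 10 members had an unadjusted p under 0.05, beside 2.88%, 3.86% and 1.05% of all genes. DESeq2 called 0, 1 and 0 of them, beside 0.235%, 0.188% and 0.0538% of all genes. In QGP-1, where MMP16 and MMP19 were too low to be tested, the share of all 14522 genes that passed was 0.0207% for dEx1 against vector, 0.0275% for FL against vector and 0.0138% for dEx1 against FL, which is 2 genes, or 0 with the replicate block. Of the 8 members tested, 1, 1 and 0 had an unadjusted p under 0.05, beside 3.63%, 5.08% and 1.28% of all genes. DESeq2 called 1, 1 and 0 of them, beside 0.407%, 0.773% and 0.131% of all genes.

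Several members instead varied with the replicate in these lines. In BON-1, MMP14 had 107, 89.7 and 203 CPM with dEx1, 96.0, 89.0 and 245 CPM with FL and 123, 71.8 and 219.7 CPM with vector. Replicate 3 was highest in each group, at 2.07, 2.65 and 2.26 times the mean of the other 2 libraries for dEx1, FL and vector. MMP15 did likewise, with 169 CPM in replicate 3 of dEx1, 174 CPM in that of FL and 188 CPM in that of vector, against 92.3 to 152 CPM in the other 6 libraries. Each BON-1 construct library had less MMP15 than the same-numbered vector library, though MMP15 did not pass with the replicate block either. MMP16 had 17.5 to 29.8 CPM with dEx1, 14.2 to 27.3 CPM with FL and 13.4 to 29.6 CPM with vector in BON-1. MMP2 in QGP-1 had 86.7, 97.8 and 163 CPM with dEx1, 89.4, 91.2 and 157 CPM with FL and 81.5, 149.6 and 157 CPM with vector. The 4 libraries with high MMP2, replicate 3 of each group and replicate 2 of vector, were also the 4 with positive scores on the first principal component of that line (39.7% of the variance). In BON-1 MMP2 had 23.3 to 38.2 CPM with dEx1, 23.4 to 39.5 CPM with FL and 21.0 to 38.2 CPM with vector. MMP15 in QGP-1 had 37.8 to 57.7 CPM with dEx1, 40.8 to 54.4 CPM with FL and 39.4 to 66.5 CPM with vector, so the groups overlapped. MMP17 in BON-1 had 3.15 to 6.07 CPM with dEx1, 3.18 to 6.52 CPM with FL and 2.71 to 11.4 CPM with vector. In QGP-1 MMP17 was near 0, at up to 0.111 CPM with dEx1 and 0.0665 CPM with FL, below the 0.173 to 0.303 CPM of the vector libraries. MMP19 in BON-1 was at most 0.931 CPM in any library.

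Among genes that control these enzymes, SK-N-SH dEx1 and FL cells differed in both directions. In that comparison 10.5% of all genes were higher and 11.5% lower in dEx1 cells. Of 5 inhibitors tested, TIMP2 and RECK, a membrane-anchored inhibitor, were higher in dEx1 than in FL cells, and TIMP1 and TFPI2 were lower. TIMP2 averaged 1139 ± 44.7 CPM with dEx1, 798 ± 128 CPM with FL and 1114 ± 108 CPM with vector, a log2 fold change for dEx1 against FL of 0.52 (SE 0.13, adjusted p = 0.0218). TIMP1 averaged 211 ± 30.2 CPM with dEx1, 576 ± 131 CPM with FL and 273 ± 3.82 CPM with vector, which gave -1.44 (SE 0.17, adjusted p = 0.00133). RECK gave 0.54 (SE 0.13, adjusted p = 0.0204) and TFPI2 gave -2.68 (SE 0.49, adjusted p = 0.00641). The calls of TIMP2 and RECK were lost without replicate 1 or 2 of FL or of dEx1, and that of TIMP2 also without replicate 3 of dEx1, with adjusted p between 0.0507 and 0.0818. The median over the 5 inhibitors was 0.24, beside 0.0003 over all genes.

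Of 7 activators tested, FURIN, the convertase that cuts the precursors of membrane-type enzymes, and PLAT, tissue plasminogen activator, were higher in dEx1 than in FL cells, and the list's median was 0.28. FURIN averaged 195 ± 12.1 CPM with dEx1 and 141 ± 16.4 CPM with FL, a log2 fold change of 0.48 (SE 0.11, adjusted p = 0.0151). Its call was lost without replicate 1 or 2 of FL or replicate 2 of dEx1, with adjusted p between 0.0564 and 0.0592. PLAT gave 1.59 (SE 0.49, adjusted p = 0.0471) and lost its call without replicate 1 or 2 of FL, any replicate of dEx1 or replicate 1 of vector, with adjusted p between 0.0594 and 0.148. Of 10 surface partners and substrates, 4 were higher and 4 lower, beside 10.5% and 11.5% of all genes, with a median of -0.02. The integrin chain ITGAV gave 1.40 (SE 0.17, adjusted p = 0.00145), the tight junction protein CLDN1 gave -1.85 (SE 0.25, adjusted p = 0.00216), the hyaluronan receptor CD44 gave -0.67 (SE 0.13, adjusted p = 0.00784) and the integrin chain ITGB3 gave -0.69 (SE 0.13, adjusted p = 0.00865).

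Against vector these lists gave few calls in SK-N-SH, where 0.934% of all genes were higher and 0.804% lower with FL and 4.47% were called with dEx1. TIMP1 was the 1 inhibitor of 5 higher in FL cells, by 1.08 (SE 0.17, adjusted p = 0.0257), and ITGAV the 1 partner of 10 that was lower, by -1.10 (SE 0.17, adjusted p = 0.0246). CLDN1 was the 1 partner of 10 lower in dEx1 cells, by -1.31 (SE 0.25, adjusted p = 0.0249). Each of these 3 calls was lost in some of the fits that left out 1 library, while the log2 fold changes kept their direction. In those fits they ran from 0.96 to 1.25 for TIMP1, -1.22 to -0.89 for ITGAV and -1.57 to -1.16 for CLDN1. TIMP1 lost its call without replicate 1 or 2 of FL, replicate 1 of dEx1 or any replicate of vector, with adjusted p between 0.0514 and 0.116. ITGAV lost it without replicate 1 or 2 of FL, replicate 1 of dEx1 or replicate 2 of vector (0.0508 to 0.101), and CLDN1 without any replicate of dEx1, replicate 1 of FL or replicate 1 or 2 of vector (0.0504 to 0.101).

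Other metalloproteases also differed. Of the chromosome 11 cluster, 7 of 7 genes tested were lower in SK-N-SH dEx1 than in FL cells, beside 11.5% of all genes, with a median log2 fold change of -4.66. Against vector, 5 of 7 were higher in FL cells, beside 0.934% of all genes. MMP1, MMP12 and MMP13, 3 of the 7, were lower in dEx1 than in vector cells, where 4.47% of all genes were called in either direction. Of 2 further genes outside the cluster that could be tested, MMP23B averaged 54.0 ± 5.73 CPM with dEx1, 35.0 ± 7.14 CPM with FL and 49.1 ± 5.95 CPM with vector. Its log2 fold change for dEx1 against FL was 0.63 (SE 0.16, adjusted p = 0.0222), and the call was lost without replicate 2 or 3 of FL or replicate 1 or 2 of dEx1, with adjusted p between 0.0556 and 0.0823.

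The genes whose levels followed these enzymes most closely were found from log2 CPM centred on each line's mean, over 27 libraries and 11253 genes. MMP24 was most like COL8A1, a collagen chain, with r = 0.945, then TMEM38A (r = 0.898) and ZNF471 (r = 0.875). MMP9 was most like RCAN1 (r = 0.919), an inhibitor of calcineurin, RASSF8 (r = 0.908) and SPPL2A (r = 0.907). MMP15 was most like RHOC (r = 0.950), a small GTPase, NQO1 (r = 0.905) and SDC1 (r = 0.903). For MMP2 the nearest was CACNA1A (r = 0.885), for MMP14 they were UBE2B and KCTD4 (r = 0.823 each) and for MMP16 it was ADGRB2 (r = 0.798). Genes were filtered by their level in SK-N-SH only, so values near 0 in the other lines also entered. MMP9 did not exceed 1.74 CPM in BON-1 or 1.63 CPM in QGP-1, and replicate 3 was highest in each of their groups. The r values share libraries and scaling and are descriptions only.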

How the data were processed

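Gene-level estimated counts were deposited by the authors as whole numbers, 1 column per library. The submitters' processing notes name Trimmomatic for adapters, HISAT2 for alignment to hg19 and StringTie for abundance; versions, annotation, strand and the step to counts are not given in the sources used here. Of 23234 lines, 4 duplicates were dropped. The whole-number values entered the tests unrounded and unscaled.

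Each line's 9 libraries were fitted on their own after filterByExpr and TMM with edgeR 4.0.16 (quasi-likelihood F test, Benjamini-Hochberg over all genes tested, threshold 0.05; R 4.3.3, limma 3.58.1). Adjusted p are from this test unless DESeq2 (1.42.0) is named. Comparisons between lines, and of a construct's change in SK-N-SH with its mean change in the other lines, used 1 fit of all 27 libraries. CPM come from TMM scaling of the 27 libraries. The likeness values and the plot of levels in all 27 libraries used log2 of CPM plus 0.1. A prior count of 2 applied to other log2 levels, not to the log2 fold changes, which are those of the fits. SE is the log2 fold change over the square root of F. Levels per kilobase used GENCODE canonical transcripts. Folds against a group at 0 are bounds from a floor of 15 units per library, for counting error only. The floor assumes that a fragment counts 5 units, so that 3 make the floor, though values of 3 and 4 units also occurred.

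Members and lists were chosen with earlier results of these data known. All members are given by level. Within a line a fold change is given where it passed or was at least 0.58 (log2) with a mean of 1 CPM or more in a group; between lines where a mean reached 1 CPM; of each list, at most 4 genes past the threshold per comparison. Of the 10 members, 4 had an entry in the RefSeq promoter table and 3 are printed. Same-numbered libraries were paired in all BON-1 comparisons and, in QGP-1, for dEx1 against FL (lowest r over 0.1, from residuals). Alternatives were no filter, DESeq2 size factors, DESeq2, a replicate block, leaving out each library and, added after seeing the data, a term for replicate 3 in SK-N-SH. The edgeR test of FL against vector in SK-N-SH was also run on simulated counts drawn without a replicate pattern. That check does not cover the replicate 3 pattern of the real libraries.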

Additional observations from a re-analysis of the deposited data

Results flagged for a closer look

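The change of MMP24 with FL differed between cell lines. The FL change was lower in SK-N-SH than the mean of the BON-1 and QGP-1 changes by a log2 difference of -1.89 (SE 0.25, adjusted p = 0.000956 by edgeR, 3 libraries a group). All 3 SK-N-SH FL libraries, at 4.71 to 9.35 CPM, were below all 3 SK-N-SH vector libraries, at 17.5 to 23.7 CPM. FL and vector libraries of BON-1 lay at 4.32 to 5.64 and 3.73 to 4.38 CPM, and those of QGP-1 at 37.5 to 41.1 and 38.1 to 39.0 CPM. Reads from MMP24OS, which overlaps MMP24 on the opposite strand, were not analysed here, and its part in the result was not tested. The lines also differed in construct RNA. MAML3 averaged 12018 CPM in SK-N-SH, 4042 CPM in BON-1 and 5475 CPM in QGP-1 FL libraries, and its part in the result was not tested.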

How the results depend on the processing

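Of 1131 alternative values for 85 gene results, 1016 kept their direction and their side of the threshold, 94 lost the call, 16 gained one and 5 reversed; the cause of each change was not tested. With DESeq2, genes called went to 1997 (members 2) in place of 656 (0) for dEx1 and 1168 (4) in place of 255 (1) for FL against vector in SK-N-SH. In BON-1 they went to 35 in place of 2 for dEx1, 28 in place of 1 for FL (members 1 in place of 0) and 8 in place of 0 for dEx1 against FL. In QGP-1 they went to 59 in place of 3 for dEx1 and 112 in place of 4 for FL (members 1 in place of 0 for each), and 19 in place of 2 for dEx1 against FL, which was also 5 with no filter and 4 with DESeq2 size factors. The tests of a difference between lines gave 594 in place of 149 for dEx1 and 398 in place of 63 for FL with DESeq2. With the replicate block, SK-N-SH had 2212 (members 2) for dEx1 and 778 (members 4) for FL against vector, QGP-1 had 8 for FL against vector and 0 for dEx1 against FL, and the differences between lines had 912 for dEx1 and 478 for FL (members 2 each), MMP11 and MMP24 in both, with MMP24 at 0.62 (adjusted p = 0.0483) for dEx1. The block changed no member's call in BON-1. Same-numbered SK-N-SH libraries had residual correlations down to 0.048, so the block is no pairing there. It gave calls there to MMP9 for dEx1 (-1.73, adjusted p = 0.018) and FL (2.00, 0.0181) against vector and to MMP11 for FL against vector (-1.31, 0.0393) and dEx1 against FL (2.24, 0.00165). The term for replicate 3 gave 2714 (members 3) for dEx1 and 1117 (members 4) for FL against vector and 5138 in place of 3226 for dEx1 against FL.

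Leaving out 1 library gave 80 to 2558 genes (members 0 to 2) for dEx1 and 21 to 364 (0 to 1) for FL against vector and 1857 to 4024 (4 to 6) for dEx1 against FL in SK-N-SH. The ranges were 1 to 2, 1 to 3 and 0 to 1 in BON-1 and 0 to 3, 1 to 6 and 0 to 7 in QGP-1 in the same order, and 64 to 589 for the dEx1 and 39 to 104 for the FL difference between lines. Values that reversed were MMP11 for FL against vector in SK-N-SH (-2.69 to 0.09), the FL difference between lines of MMP11 (-2.65 to 0.12) and MMP9 (-0.12 to 2.62), and MAML3 for dEx1 against FL in BON-1 (-0.35 to 0.12) and QGP-1 (-0.71 to 0.10). DESeq2 gave no adjusted p for MMP11 between the vector cells of different lines or in the FL difference between lines. In SK-N-SH it gave none for MMP11 in FL against vector or dEx1 against FL. The worth of a deposited unit in fragments limits what can be read from levels under 1 CPM.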
